A study of Mus musculus with 23 samples.

Results

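Expression of 9 genes encoding costimulatory receptors and activation surface markers was described in mouse CD8+ T cells: Tnfrsf9, Tnfrsf4, Tnfrsf18, Cd27, Cd28, Icos, Cd40lg, Cd69 and Cd44. They form a list of symbols, and no threshold on measured values chose them. All 9 were among the 49492 genes of the count table, and all 9 were among the 18015 genes that passed the filter on low counts. The study concerns PLPP1, an enzyme that removes phosphate from lipid phosphates, together with PD-1 signalling, ferroptosis and antitumour activity of CD8+ T cells. Spleen CD8+ T cells came from PLPP1fl/fl mice (here WT, which carry the floxed allele) or from Lckcre-PLPP1fl/fl mice (here KO, which carry the same allele and a Cre driven by the Lck promoter, active in developing T cells). Cells of each genotype were left untreated, given octadecenoic acid (OA, which has a single double bond) or given arachidonic acid (AA, a polyunsaturated fatty acid). Groups are written WT, WT OA, WT AA, KO, KO OA and KO AA, with 4 libraries each except KO OA, which had 3. The labels give no age, dose or time of treatment, and they do not say whether libraries of a group came from separate animals, so p-values reflect only variation among these libraries, which may be technical.

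A T cell that recognises antigen needs a further signal to divide and survive, and costimulatory receptors supply it. CD28 and ICOS belong to the immunoglobulin family, meet their ligands on antigen-presenting cells and signal through phosphoinositide 3-kinase. CD137 (Tnfrsf9), OX40 (Tnfrsf4), GITR (Tnfrsf18) and CD27 belong to the tumour necrosis factor receptor family and signal through TRAF adaptor proteins; CD27 and CD28 are already present on resting T cells, whereas CD137 and OX40 appear mainly after activation. CD40 ligand (Cd40lg) is a member of the tumour necrosis factor family itself, best known on activated CD4+ T cells, where it triggers CD40 on presenting cells. CD69 is an early activation marker that holds cells in tissue by removing the sphingosine phosphate receptor from the surface, and CD44 is a hyaluronan receptor that stays high on activated and memory T cells.

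The 23 libraries held between 39265131 and 58878203 counts each. CD8 T cell genes were abundant, with the 6 markers Cd8a, Cd8b1, Cd3e, Cd3g, Trac and Lck summing to between 1650 and 2116 CPM (the read count normalised for library size, here scaled by the trimmed mean of M values, TMM) in every library. The 4 B cell markers summed to at most 2.40 CPM, with Ms4a1 at 0 in the KO and KO OA libraries and Pax5 at 0 in the KO OA libraries. The 5 myeloid markers summed to at most 9.73 CPM, with S100a8 at 0 in all libraries. The genotypes also differed in features that the labels do not mention. The gene Trbv12-1 took 81.6 to 86.0% of all T cell receptor beta variable gene counts in the 12 libraries from WT mice and 3.27 to 4.32% in the 11 from KO mice. Xist, which is transcribed from an inactive X chromosome, stood at 784 to 884 CPM in the former and at 2.98 to 5.35 CPM in the latter. The Y-linked gene Ddx3y stood at 56.9 to 64.0 CPM and at 95.5 to 107.8 CPM. Plpp1 itself had 17 to 39 counts per WT library and 15 to 37 per KO library. These low counts overlapped and showed no clear loss of its message in KO, so the genotype rests on the labels. Every difference between KO and WT given here therefore cannot be told apart from these other differences between the 2 sets of libraries. In bulk RNA, fewer cells of a type and less RNA per cell cannot be told apart either.

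Per length, the 9 genes spanned a wide range of levels. Cd27 was the most abundant, with a median over the 23 libraries of 186 RPKM (the read count normalised for gene length and library size). Tnfrsf18 followed with 26.7 RPKM, Tnfrsf9 with 15.98, Cd28 with 12.4 and Cd44 with 11.3. Cd69 had a median of 7.65 RPKM, Tnfrsf4 of 7.19 and Icos of 5.46. Cd40lg was close to the detection limit with 0.355 RPKM and between 6 and 52 counts per library, so its values carry a much larger counting error than those of the other 8 genes, whose lowest count in any library was 310. The genes lie on chromosomes 1, 2, 4, 6 and X (GRCm38, coordinates of whole genes). Tnfrsf4 (chr4:156013843-156016612, plus strand) and Tnfrsf18 (chr4:156026164-156028895, plus strand) are neighbours 9551 bases apart, and Tnfrsf9 is on the same chromosome (chr4:150914562-150946102, plus strand). Cd28 (chr1:60716800-60773359, plus strand) and Icos (chr1:60977927-61000320, plus strand) are separated by 204567 bases. Cd27 (chr6:125232622-125237010, minus strand) and Cd69 (chr6:129267325-129275436, minus strand) share chromosome 6, Cd44 is on chromosome 2 (chr2:102811141-102901665, minus strand), and Cd40lg is on the X chromosome (chrX:57212143-57224042, plus strand).

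Reads at Tnfrsf18 cannot be assigned to it alone. The gene shares 414 exon bases with Gm16008, a gene on the opposite strand (chr4:156022008-156031643), and the sources used here do not say whether counting used the strand. Gm16008 had 1071 to 2387 counts, 76.6 to 82.6% of the Tnfrsf18 count in every library. This ratio is not the share of Tnfrsf18 reads in doubt, because 414 of its 1524 exon bases are shared and a read may have been counted for both genes. All Tnfrsf18 values given here are therefore uncertain to an extent that the counts do not give. Cd27 contains Mir8113 (129 bases, same strand), whose 1134 to 1827 counts per library were 6.22 to 8.18% of those of Cd27. No gene shared exon bases with the other 7 genes.

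**Figure D1:**
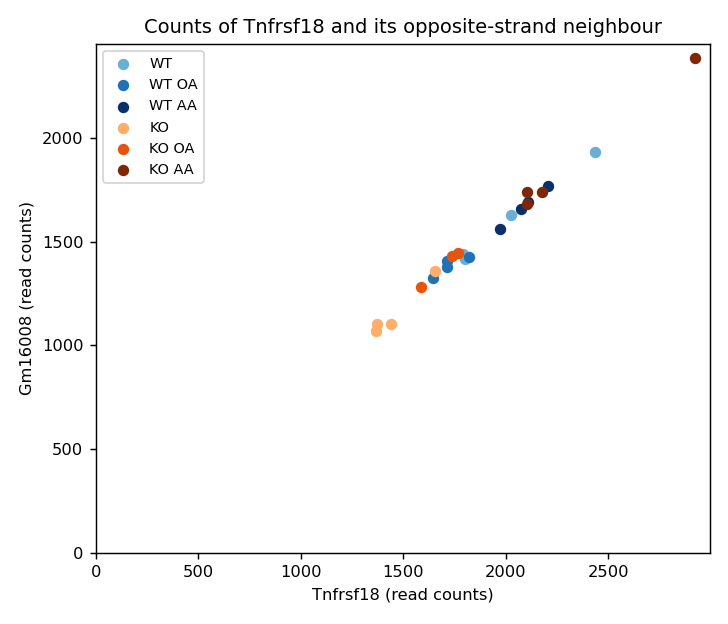
Read counts of Gm16008 (vertical axis) against read counts of Tnfrsf18 (horizontal axis), both linear from 0; each point is 1 of the 23 libraries, coloured by group. The points lie along a line, with Gm16008 at 76.6 to 82.6% of the Tnfrsf18 count in every group.

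**Figure D2:**
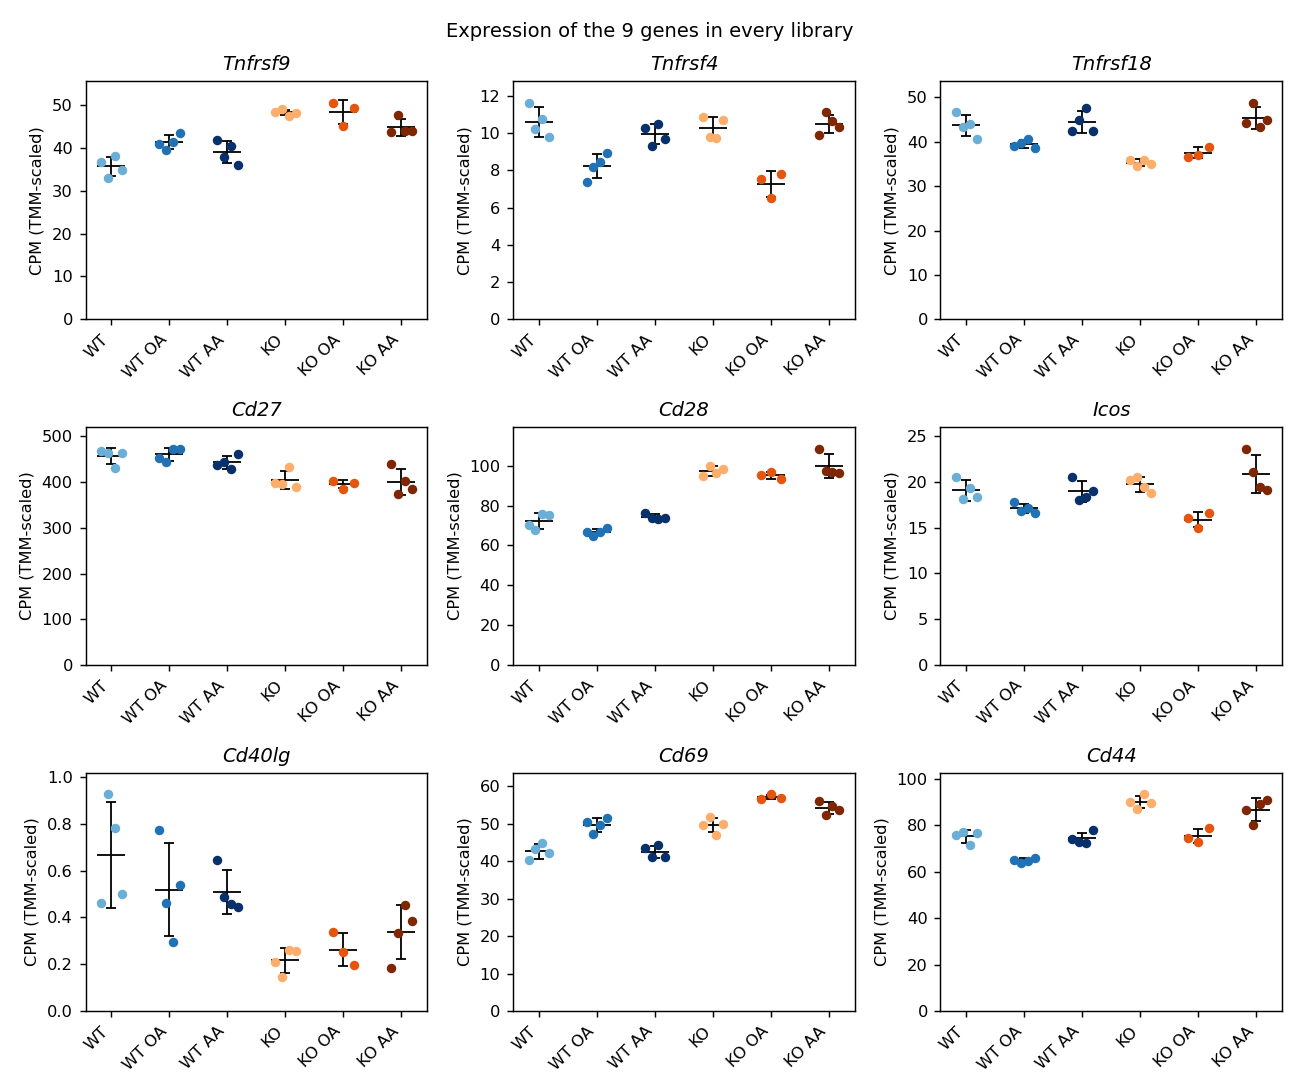
TMM-scaled CPM (linear axes from 0, one scale per gene) of the 9 genes in each of the 23 libraries, by group; each point is 1 library, the long horizontal line is the group mean and the bars are 1 SD. Cd28 is higher in all KO than in all WT libraries whatever the fatty acid, Tnfrsf4 is low in the WT OA and KO OA libraries, and Tnfrsf18 is low in the untreated KO libraries.

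The first comparison set KO against WT cells without added fatty acid. CD28, CD137, CD44 and CD69 messages rose in KO cells, GITR, CD27 and CD40 ligand messages fell, and OX40 and ICOS messages did not pass the test. Thus 7 of the 9 genes were called by edgeR's quasi-likelihood test at an adjusted p (Benjamini-Hochberg over all 18015 genes) under 0.05, 4 higher and 3 lower. The share called among all tested genes was 49.8%, with 25.6% higher and 24.2% lower, so being called in this comparison is common. The median size of the log2 difference was 0.26 over the 9 genes and 0.26 over all tested genes.

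Cd28 had the smallest adjusted p of the 9. It stood at 70.5, 67.6, 75.8 and 75.2 CPM in the WT libraries and at 94.6, 99.98, 96.4 and 98.5 CPM in the KO libraries. The lowest KO library lay above the highest WT library, and the difference was 1.35-fold (log2 0.43, SE 0.04, adjusted p = 8.36e-12, edgeR quasi-likelihood). Groups did not overlap for 6 of the 9 genes, compared with 43.2% of all tested genes. Tnfrsf9 was 36.7, 32.9, 38.1 and 34.8 CPM in WT and 48.2, 49.1, 47.4 and 48.1 CPM in KO, also without overlap and with a narrow spread in KO. Its difference was 1.35-fold as well (log2 0.44, SE 0.05, edgeR adjusted p = 1.39e-09). The other receptor of the immunoglobulin family, Icos, averaged 19.1 ± 1.1 CPM (SD, n = 4) in WT libraries and 19.7 ± 0.82 CPM (SD, n = 4) in KO libraries. Its log2 difference of 0.05 had a 95% confidence interval from -0.07 to 0.17.

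The 2 activation markers had smaller estimated differences. Cd44 was 75.7, 77.1, 71.3 and 76.6 CPM in WT and 90.2, 86.8, 93.3 and 89.4 CPM in KO, with no overlap and a 1.20-fold difference (log2 0.26, edgeR adjusted p = 5.31e-07). Cd69 was 40.3, 43.2, 44.9 and 42.2 CPM in WT and 49.8, 51.8, 47.2 and 50.01 CPM in KO, again with no overlap and a 1.17-fold difference (log2 0.22, edgeR adjusted p = 1.80e-05). Both genes are therefore higher in all 4 KO than in all 4 WT libraries.

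Among the genes that fell, Tnfrsf18 was 46.6, 43.4, 44.1 and 40.7 CPM in WT and 35.9, 34.4, 35.9 and 34.9 CPM in KO. The groups did not overlap, and the log2 difference of -0.31 (SE 0.05, edgeR adjusted p = 4.93e-07) corresponds to a 1.24-fold lower level in KO. Cd27 was 468, 462, 430.2 and 464 CPM in WT and 397, 396, 433 and 389.8 CPM in KO. Here the groups overlapped, because replicate 3 lay at the low end of WT and at the high end of KO, and the log2 difference was -0.18 (edgeR adjusted p = 5.07e-04). Cd40lg had 20, 52, 32 and 22 counts in the WT libraries and 8, 6, 12 and 10 counts in the KO libraries. Its groups did not overlap, and its log2 difference of -1.62 had a wide 95% confidence interval, from -2.33 to -0.90 (edgeR adjusted p = 2.03e-04). Tnfrsf4 averaged 10.6 ± 0.80 CPM (SD, n = 4) in WT libraries and 10.3 ± 0.58 CPM (SD, n = 4) in KO libraries, a log2 difference of -0.05 with a 95% confidence interval from -0.19 to 0.10.

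Markers of other cells also differed between the genotypes, and their part in these results was not tested. Of all tested genes, 25.6% were higher and 24.2% lower in this comparison, so single called markers are common. The 4 CD4 and regulatory T cell markers summed to 35.0 to 37.5 CPM in WT and 24.3 to 27.6 CPM in KO; regulatory T cells are known to carry GITR and OX40, and CD40 ligand is known from CD4+ cells. Of these 4, Foxp3, which specifies regulatory T cells, fell (log2 -0.66, edgeR adjusted p = 5.16e-12), Ikzf4 fell (log2 -0.99) and Zbtb7b, which specifies CD4 T cells, rose (log2 0.33). Cd4 averaged 2.52 ± 0.30 CPM (SD, n = 4) in WT libraries and 2.27 ± 0.24 CPM (SD, n = 4) in KO libraries, and none of the 4 was at 0. The 6 dendritic cell markers summed to 23.3 to 27.7 CPM in WT and 13.8 to 16.2 CPM in KO, with 2 of 6 lower (H2-Ab1 and Cd74) and none at 0. The 4 NK cell markers summed to 18.4 to 20.8 CPM in WT, where Klra8 was at 0, and 38.5 to 41.8 CPM in KO, and most of this was Eomes, a factor that activated CD8 T cells express too (19.3 and 39.7 CPM on average). Only 2 of these 4 markers were tested, and both were higher in KO, with a median log2 difference of 1.19. The 4 platelet markers summed to 8.401 to 10.1 CPM in WT and 3.32 to 4.48 CPM in KO, with 2 of 3 tested lower and none at 0. Of the 5 myeloid markers, 4 were tested and 1 was higher, and the single B cell marker tested, Cd79a, was lower (log2 -0.38). The 6 CD8 T cell markers differed too, with 2 higher and 3 lower; Trac, the constant region of the T cell receptor alpha chain, averaged 254 ± 6.3 CPM (SD, n = 4) in WT libraries and 131 ± 4.4 CPM (SD, n = 4) in KO libraries (log2 -0.95, edgeR adjusted p = 1.02e-21).

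With fatty acid in both genotypes, Cd28, Tnfrsf9, Cd69 and Cd44 were again higher and Cd27 again lower in KO. With AA, 5 of the 9 genes were called (4 higher, 1 lower), against 42.7% of all tested genes (21.5% higher, 21.2% lower). With OA, 6 of the 9 were called (4 higher, 2 lower), against 43.1% (21.7% higher, 21.4% lower). The 3 genotype comparisons use separate libraries. Cd28 was higher in KO in both, with a log2 difference of 0.43 with AA (edgeR adjusted p = 1.57e-11) and 0.51 with OA (edgeR adjusted p = 1.19e-12). Cd28 was 76.2, 73.5, 73.3 and 73.8 CPM in the WT AA libraries and 109, 97.5, 96.7 and 96.1 CPM in the KO AA libraries. In the WT OA libraries it was 66.9, 64.6, 66.5 and 68.6 CPM, and in the KO OA libraries 95.4, 96.7 and 93.3 CPM. All 11 libraries from KO mice thus lay above all 12 from WT mice for Cd28.

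Cd69 was higher in KO by log2 0.35 with AA and 0.20 with OA, and Cd44 by log2 0.22 with both, each with an edgeR adjusted p of at most 1.81e-04. Tnfrsf9 was higher by log2 0.20 with AA (edgeR adjusted p = 8.52e-04) and 0.22 with OA (edgeR adjusted p = 5.06e-04). Cd27 was lower by log2 -0.15 with AA and -0.22 with OA (edgeR adjusted p = 0.00390 and 9.87e-05). For the first 3 of these, KO and WT libraries did not overlap in either condition; for Cd27 they overlapped with AA and not with OA. Tnfrsf18 was not called with AA (log2 0.03, 95% confidence interval -0.06 to 0.12) or with OA (log2 -0.08, 95% confidence interval -0.18 to 0.02). Icos and Tnfrsf4 were not called in either condition either; for Icos with AA the log2 difference was 0.14 (edgeR adjusted p = 0.0597), and for Tnfrsf4 with OA it was -0.18 (edgeR adjusted p = 0.0791). Omission of WT AA replicate 1 or of KO AA replicate 3 or 4 brought Icos past the threshold (adjusted p from 0.0214 to 0.0317). Omission of WT OA replicate 1 or of KO OA replicate 3 did so for Tnfrsf4 (0.0268 and 0.0470).

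Cd40lg had 30, 24, 20 and 22 counts in the WT AA libraries and 9, 20, 22 and 18 in the KO AA libraries. The groups overlapped and the log2 difference of -0.59 was not called (edgeR adjusted p = 0.154). With OA it had 36, 20, 12 and 24 counts in WT and 16, 12 and 8 in KO, which overlapped as well. The log2 difference of -0.98 was called (edgeR adjusted p = 0.0347), but omission of WT OA replicate 1 or 4 or of KO OA replicate 2 or 3 ended the call, with adjusted p-values up to 0.156, as did testing without the filter on low counts (0.0623).

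Marker lists differed between KO and WT under both fatty acids, and their part in these results was not tested. Of all tested genes, 21.2% were lower and 21.5% higher with AA, and 21.4% lower and 21.7% higher with OA. Of the 6 CD8 T cell markers, 5 were lower in KO with AA (sums of 1650 to 1767 CPM in KO and 1934 to 1996 CPM in WT) and 3 with OA (1695 to 1760 and 1959 to 2116 CPM), with 0 higher and none at 0. Of the 4 CD4 and regulatory T cell markers, 2 were lower with each fatty acid, with sums of 26.4 to 29.3 CPM in KO AA, 35.9 to 38.3 in WT AA, 23.2 to 24.6 in KO OA and 32.6 to 34.9 in WT OA. Of the 6 dendritic cell markers, 3 were lower with each, with sums of 14.5 to 16.4 CPM in KO AA, 22.3 to 25.0 in WT AA, 10.04 to 11.3 in KO OA and 18.8 to 21.9 in WT OA. The 3 tested platelet markers were lower with each, with sums of 5.66 to 7.35 CPM in KO AA, 9.72 to 10.6 in WT AA, 5.01 to 6.44 in KO OA and 9.69 to 11.7 in WT OA, and none of these 3 lists had a marker at 0. Eomes, of the NK list, was higher in KO with each. Of the myeloid markers, 1 was lower with AA and 2 with OA.

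**Figure D3:**
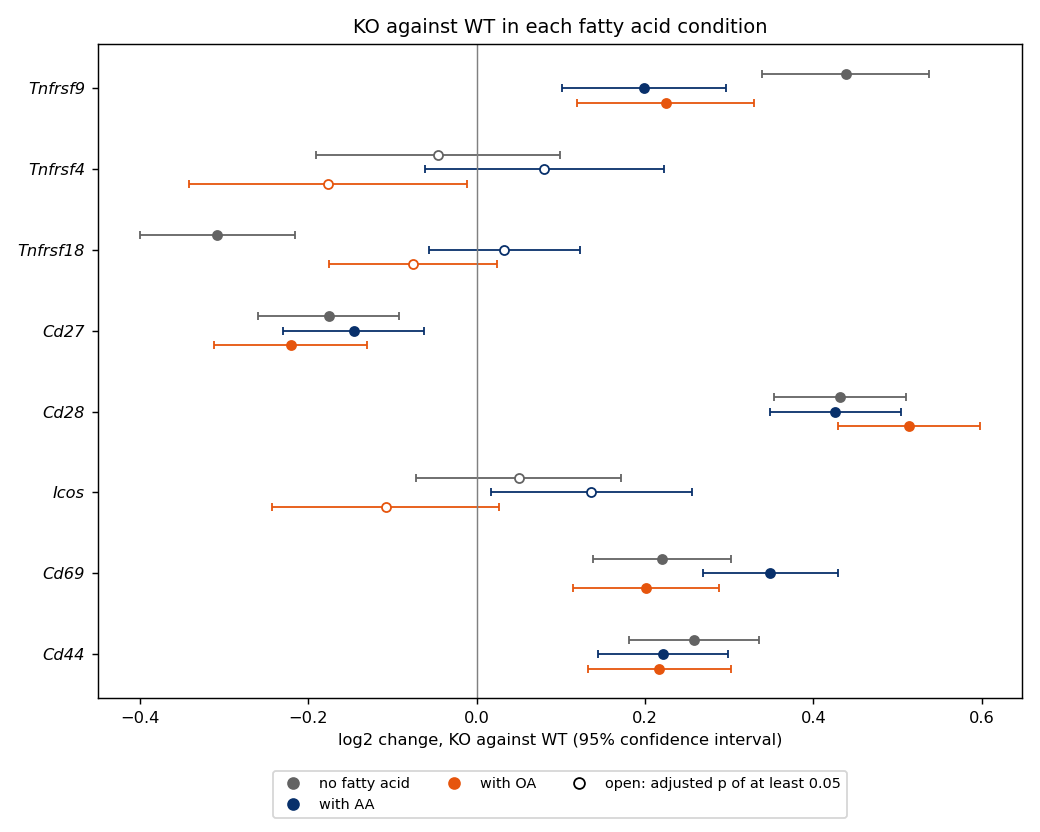
Log2 difference between KO and WT (horizontal axis) in cells untreated, given AA or given OA, for 8 of the 9 genes; points are edgeR estimates, bars are 95% confidence intervals and open points did not pass an adjusted p of 0.05. Cd40lg is not drawn because its intervals are far wider. Cd28, Cd44, Cd69 and Tnfrsf9 lie right of 0 and Cd27 left of 0 in all 3 conditions, whereas the Tnfrsf18 interval excludes 0 only without fatty acid.

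The second question was what the fatty acids did within each genotype. With OA, OX40 and CD44 messages fell and the CD69 message rose in both genotypes. The CD137 message rose in WT cells and the ICOS message fell in KO cells. In WT, 4 of the 9 genes were called with OA (2 higher, 2 lower), against 3.73% of all tested genes (1.23% higher, 2.50% lower), and groups did not overlap for 6 of the 9, against 9.40% of all tested genes. Without WT replicate 2, the number of all genes called with OA in WT was 436 and not 672. The median size of the log2 change was 0.21 over the 9 genes and 0.09 over all tested genes. In KO, 4 of the 9 were called (1 higher, 3 lower), against 23.2% of all tested genes (10.5% higher, 12.7% lower), with median sizes of 0.20 and 0.15. The WT and KO comparisons share no libraries.

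Tnfrsf4 had the largest called fold change. It was 11.6, 10.2, 10.8 and 9.79 CPM in WT and 7.39, 8.16, 8.44 and 8.91 CPM in WT OA, with no overlap, and had a log2 change of -0.37 (SE 0.07, edgeR adjusted p = 0.00133). In KO it was 10.8, 9.82, 9.72 and 10.7 CPM untreated and 7.54, 6.49 and 7.83 CPM with OA, again with no overlap, and had a log2 change of -0.50 (SE 0.08, edgeR adjusted p = 1.24e-05). The 7 OA libraries thus held the 7 lowest values of Tnfrsf4 among all 23 libraries. The difference between the fatty acid's effects in KO and WT was log2 -0.13, with a 95% confidence interval from -0.35 to 0.09, and was not called.

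Cd44 was 65.1, 63.7, 64.5 and 66.1 CPM in WT OA, below all 4 untreated WT libraries, and had a log2 change of -0.21 (edgeR adjusted p = 3.91e-04). In KO OA it was 74.5, 72.9 and 78.8 CPM, below all 4 untreated KO libraries, with a log2 change of -0.25 (edgeR adjusted p = 1.32e-05). Its level in KO OA libraries therefore overlapped that of untreated WT libraries. Cd69 moved the other way. It was 50.4, 47.2, 49.7 and 51.6 CPM in WT OA, a log2 rise of 0.22 (edgeR adjusted p = 3.91e-04), and 56.7, 57.9 and 56.9 CPM in KO OA, a log2 rise of 0.20 (edgeR adjusted p = 4.70e-04). In each genotype the OA libraries lay above all the untreated ones, and Cd69 in the WT OA libraries overlapped with that in untreated KO libraries.

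Tnfrsf9 was 40.8, 39.5, 41.4 and 43.5 CPM in WT OA, all above the untreated WT libraries, a log2 rise of 0.22 (edgeR adjusted p = 0.00600). Omission of WT replicate 2 ended that call (adjusted p = 0.0555). In KO OA it was 50.5, 45.1 and 49.2 CPM, which straddled the untreated KO libraries, with a log2 change of 0.00 (95% confidence interval -0.10 to 0.11). Icos was 16.1, 14.96 and 16.6 CPM in KO OA against 20.2, 20.5, 19.4 and 18.7 CPM in untreated KO, with no overlap, with a log2 change of -0.31 (edgeR adjusted p = 4.55e-04). In WT OA it was 17.8, 16.8, 17.2 and 16.6 CPM against 20.6, 18.1, 19.3 and 18.3 CPM in untreated WT; those groups did not overlap either, but the log2 change of -0.16 was not called (edgeR adjusted p = 0.173). The interval of the difference between genotypes, -0.34 to 0.02 on the log2 scale, includes 0, so an unequal effect of OA on Icos was not shown.

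Cd27 and Cd28 were not called with OA in either genotype. For Cd27 the log2 changes were 0.01 in WT and -0.03 in KO, and for Cd28 they were -0.12 in WT (95% confidence interval -0.19 to -0.04, edgeR adjusted p = 0.1004) and -0.03 in KO. The Cd28 change in WT was called when WT replicate 2 was left out (adjusted p = 0.0408). Cd40lg had 95% confidence intervals of about a log2 unit and more, from -0.99 to 0.26 in WT and from -0.59 to 1.13 in KO. Changes of any size within those limits are therefore compatible with the data.

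Markers of other cells also moved with OA, and their part in these results was not tested. Of all tested genes, 3.73% were called in WT (2.50% lower) and 23.2% in KO (12.7% lower). The 4 CD4 and regulatory T cell markers summed to 32.6 to 34.9 CPM in WT OA, just below the untreated range of 35.0 to 37.5 CPM, with 1 of 4 lower (Ikzf4). In KO OA the CD4 and regulatory T cell markers summed to 23.2 to 24.6 CPM against 24.3 to 27.6 CPM untreated, with 1 of 4 lower (Zbtb7b) and none at 0 in either group. The 6 dendritic cell markers summed to 18.8 to 21.9 CPM in WT OA, with 1 of 6 lower, and to 10.04 to 11.3 CPM in KO OA, with 3 of 6 lower and none at 0. The 4 NK cell markers, mostly Eomes, summed to 14.9 to 16.3 CPM in WT OA, where Klra8 was at 0, and to 26.6 to 28.1 CPM in KO OA, with Eomes lower in both genotypes (log2 -0.32 and -0.58). The 5 myeloid markers summed to 5.16 to 7.11 CPM in WT OA against 7.22 to 9.63 CPM untreated, and to 4.10 to 5.56 CPM in KO OA against 7.48 to 9.73 CPM untreated. S100a8 was at 0 in all of these, and Itgam was lower in both genotypes (log2 -0.68 and -1.09). The 4 platelet markers summed to 9.69 to 11.7 CPM in WT OA, with 0 of 3 tested called, and to 5.01 to 6.44 CPM in KO OA against 3.32 to 4.48 CPM untreated, with 1 higher (Itga2b) and none at 0. The 6 CD8 T cell markers were not called in WT, while 3 of them fell in KO, where their sum was 1695 to 1760 CPM with OA and 1866 to 1942 CPM without.

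**Figure D4:**
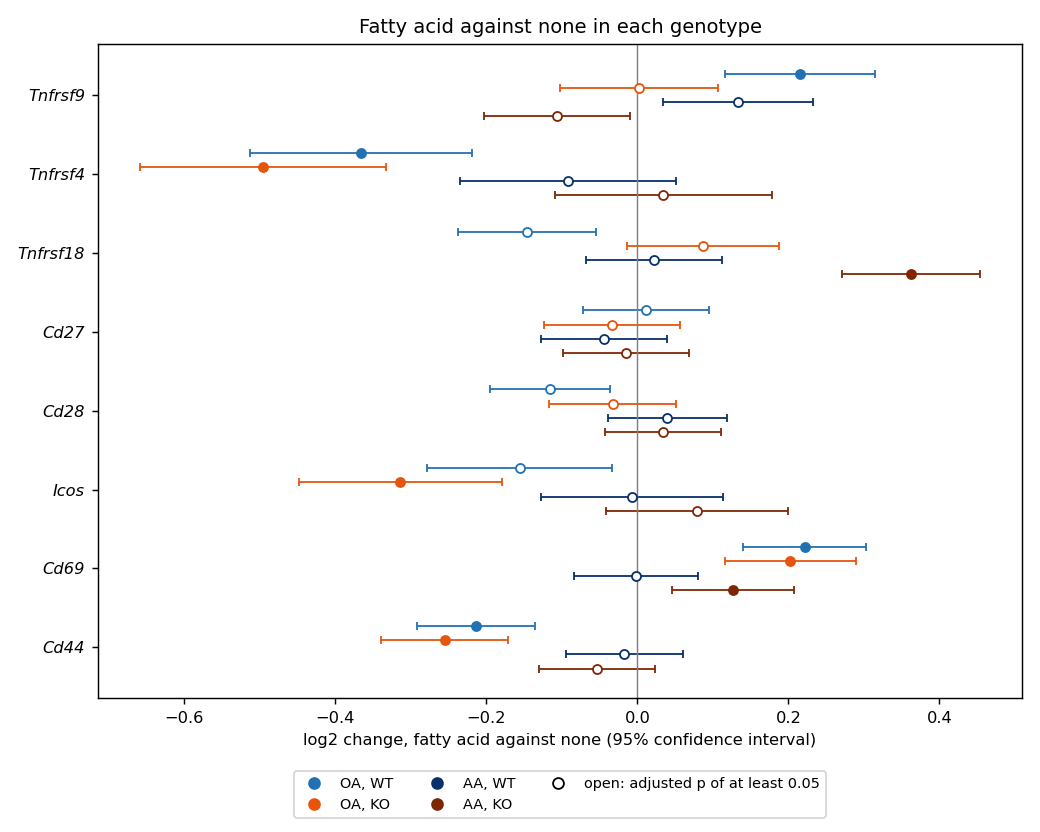
Log2 change, fatty acid against none (horizontal axis), in each genotype for 8 of the 9 genes; points are edgeR estimates, bars are 95% confidence intervals and open points did not pass an adjusted p of 0.05. Cd40lg is not drawn because its intervals are far wider. Tnfrsf4 and Cd44 lie left of 0 and Cd69 right of 0 with OA in both genotypes, and Tnfrsf18 with AA in KO is the point farthest right.

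Because Tnfrsf4 and Cd44 fell together with OA, the 250 bases before their RefSeq transcription starts are shown (GRCm38.p6, 5′ to 3′ on the gene's strand); capitals mark GGAAA or its reverse complement TTTCC, the core bound by NFAT, a factor activated by T cell receptor signalling. The Tnfrsf4 window is chr4:156013445-156013694 on the plus strand and the Cd44 window is chr2:102901666-102901915 on the minus strand.
Tnfrsf4: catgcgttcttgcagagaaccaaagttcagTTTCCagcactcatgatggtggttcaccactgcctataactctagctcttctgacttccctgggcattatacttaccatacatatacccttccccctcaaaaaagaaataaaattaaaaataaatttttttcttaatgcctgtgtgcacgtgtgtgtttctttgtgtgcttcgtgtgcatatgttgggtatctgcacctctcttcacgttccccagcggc
Cd44: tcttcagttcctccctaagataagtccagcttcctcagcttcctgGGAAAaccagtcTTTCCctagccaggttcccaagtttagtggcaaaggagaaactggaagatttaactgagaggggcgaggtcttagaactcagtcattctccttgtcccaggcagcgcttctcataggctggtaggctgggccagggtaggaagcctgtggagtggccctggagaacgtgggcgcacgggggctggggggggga

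The search covered 4 motifs, chosen after results were known, on both strands: the NFAT core GGAAA, the AP-1 motif TGANTCA, an NF-kB motif (GGG, any 2 bases, then TTTCC) and the PPAR direct repeat (AGGTCA, any 1 base, then AGGTCA). Of 32851 RefSeq windows of this length, 55.6% held the NFAT core, 6.75% the AP-1 motif, 1.41% the NF-kB motif and 0.0335% the PPAR repeat. Windows were matched for 5 of the 9 genes (6 windows, since Tnfrsf9 has several starts). The Tnfrsf4 window held 1 NFAT core and the Cd44 window 2, and neither held the other 3 motifs. The NFAT core was in all 6 windows, with 1 in that of Cd27, 2 in that of Tnfrsf18 and 2 and 3 in those of Tnfrsf9. It therefore did not set Tnfrsf4 and Cd44 apart. Of the 250 bases of the Tnfrsf18 window, 158 lie in exons of that gene in the GRCm38 annotation. Among the 6 windows, AP-1 and NF-kB motifs were found in 1, upstream of a Tnfrsf9 start, in bases that the GRCm38 annotation also places in an exon of the gene. These sites are shown because Tnfrsf9, alone of the 5 genes, carried them; capitals mark the motif, and the NF-kB motif contains TTTCC. They lie at chr4:150927951-150927970 and chr4:150927979-150927995, both on the plus strand. A match describes the letters and is not evidence of binding.
Tnfrsf9 NF-kB: cagctGGGGATTTCCcagga
Tnfrsf9 AP-1: tcagtTGAGTCAcaggt

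With AA in WT cells, no change in the 9 genes passed the test. Here edgeR's quasi-likelihood test called 0 of the 9 genes, as did DESeq2, against 0.416% of all tested genes, and 1 of the 9 had an unadjusted p under 0.05. Over all genes 75 were called, and 48 without WT replicate 1. The gene with an unadjusted p under 0.05 was Tnfrsf9, at 41.8, 37.9, 40.5 and 36.0 CPM with AA, overlapping the untreated libraries. Its log2 change was 0.13 (95% confidence interval 0.03 to 0.23, edgeR adjusted p = 0.408). The intervals of Cd27, Cd28, Icos, Cd69, Cd44 and Tnfrsf18 in WT all lay between -0.13 and 0.12 on the log2 scale. For Tnfrsf4 the interval ran from -0.24 to 0.05 and for Cd40lg from -1.02 to 0.22.

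In KO cells given AA, the GITR message rose and the CD69 message rose by less. These 2 of the 9 genes were called, both higher, against 27.6% of all tested genes (12.2% higher). Tnfrsf18 was 44.3, 48.8, 43.3 and 44.98 CPM with AA against 35.9, 34.4, 35.9 and 34.9 CPM without, and all AA libraries lay above all untreated ones. The rise was 1.29-fold (log2 0.36, SE 0.04, edgeR adjusted p = 7.48e-08). With AA its level in KO overlapped that in the WT AA libraries, at 42.4, 44.96, 47.7 and 42.5 CPM. Cd69 was 56.0, 52.4, 54.8 and 53.8 CPM with AA in KO, above all untreated KO libraries, a log2 rise of 0.13 (edgeR adjusted p = 0.0146). Omission of KO replicate 3 ended the Cd69 call (adjusted p = 0.0735). The remaining 7 genes were not called, and their log2 changes ran from -0.11 for Tnfrsf9 (edgeR adjusted p = 0.0992) to 0.63 for Cd40lg (edgeR adjusted p = 0.233).

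The genes not called with AA kept ranges that overlapped those of the untreated libraries. Cd44 lay between 72.1 and 77.9 CPM in WT AA and between 79.96 and 91.0 CPM in KO AA. Cd27 lay between 429 and 461 CPM in WT AA and between 373 and 439.8 CPM in KO AA, the widest spread of this gene in any group (SD 29.1 CPM). Tnfrsf4 lay between 9.32 and 10.5 CPM in WT AA and between 9.92 and 11.1 CPM in KO AA, so that AA libraries did not share the low OX40 level of the OA libraries. Icos lay between 17.99 and 20.5 CPM in WT AA, and Cd69 between 41.3 and 44.4 CPM.

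Marker lists moved with AA in KO as well, where 27.6% of all tested genes were called (12.2% higher). The 4 CD4 and regulatory T cell markers summed to 26.4 to 29.3 CPM with AA and 24.3 to 27.6 CPM without, with 2 of 4 higher (Foxp3, log2 0.18, and Ikzf4, log2 0.34), 1 lower (Zbtb7b) and none at 0. The 6 dendritic cell markers summed to 14.5 to 16.4 CPM with AA, with 3 of 6 higher, 1 lower and none at 0, and the 4 NK cell markers to 25.8 to 28.4 CPM, with Eomes lower (log2 -0.58) and none at 0. The 6 CD8 T cell markers summed to 1650 to 1767 CPM with AA and 1866 to 1942 CPM without, with 4 of 6 lower (Cd8a, Cd8b1, Cd3e and Lck) and none at 0. The 4 platelet markers summed to 5.66 to 7.35 CPM with AA and 3.32 to 4.48 CPM without, with 2 of 3 tested higher and none at 0. Of the myeloid markers 1 of 4 tested was lower, and the B cell marker Cd79a was higher (log2 0.39). The part of these cells in the Tnfrsf18 and Cd69 rises was not tested. In the WT AA libraries the 4 CD4 and regulatory T cell markers summed to 35.9 to 38.3 CPM, with none of them called against untreated WT.

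The fatty acid effects were then compared between genotypes with the interaction term of the same model. For AA and for OA, 2 of the 9 genes were called, Tnfrsf9 and Tnfrsf18, against 13.9% and 12.5% of all tested genes; both terms use the same untreated libraries. The AA effect on Tnfrsf18 was larger in KO by a log2 difference of 0.34 (SE 0.06, edgeR adjusted p = 2.12e-04), a called result in every omission of a single library. The OA effect differed by 0.23 (edgeR adjusted p = 0.0177). Tnfrsf18 stood at 39.1, 39.7, 40.7 and 38.6 CPM in WT OA, all below the untreated WT libraries, and at 36.6, 37.0 and 38.9 CPM in KO OA, all above the untreated KO libraries. Neither of those changes was called alone (log2 -0.15, edgeR adjusted p = 0.0637, and log2 0.09, edgeR adjusted p = 0.227). The OA term lost its call without KO OA replicate 3 (adjusted p = 0.0637).

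For Tnfrsf9 the interaction had the other sign. Its level rose in WT with OA and was 43.6, 47.7, 43.9 and 43.8 CPM in KO AA, of which 3 libraries lay below all untreated KO libraries. The AA term was -0.24 (SE 0.07, edgeR adjusted p = 0.0146) and the OA term -0.21 (SE 0.07, edgeR adjusted p = 0.0422). The AA call was lost in 4 of the 16 omissions of a library (without WT replicate 2 or 4 or WT AA replicate 1 or 3), with adjusted p-values up to 0.0806. The OA call was lost in 10 of 15 omissions, up to 0.177, and also under DESeq2's size factors in edgeR and in a fit of the 4 compared groups alone. From high to low, the Tnfrsf9 order of group means was KO OA, KO, KO AA, WT OA, WT AA and WT, at 48.3, 48.2, 44.8, 41.3, 39.0 and 35.6 CPM, and among neighbours in this order only KO AA and WT OA did not overlap.

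The other genes fell into different orders. Cd28 averaged 99.7, 97.4 and 95.1 CPM in KO AA, KO and KO OA and 74.2, 72.3 and 66.6 CPM in WT AA, WT and WT OA, with overlap between neighbours within each genotype and a gap between the genotypes. Cd69 was highest in KO OA, at 57.2 CPM, then 54.3 in KO AA, 49.73 in WT OA, 49.70 in KO, 42.65 in WT and 42.61 in WT AA, and WT OA and KO overlapped, as did WT and WT AA. Cd44 ran from 89.9 CPM in KO and 86.7 in KO AA, which overlapped, through 75.4 in KO OA, 75.2 in WT and 74.3 in WT AA, which overlapped, to 64.8 in WT OA, below all others. For Tnfrsf18, KO AA, WT AA and WT overlapped at 45.4, 44.4 and 43.7 CPM, WT OA and KO OA overlapped at 39.5 and 37.5 CPM, and KO was lowest at 35.3 CPM. Cd27 and Cd40lg showed overlap between all neighbours.

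The direct contrast of the fatty acids reuses the libraries of the comparisons above, and the doses and times are not given in the labels, so the values are set side by side. In WT, 5 of the 9 genes were called between AA and OA (4 higher with AA, 1 lower), against 2.95% of all tested genes (1.95% higher, 0.999% lower). Without WT OA replicate 4, the number of all genes called was 349 and not 531. Tnfrsf4, Tnfrsf18, Cd28 and Cd44 were higher with AA (log2 0.27, 0.17, 0.15 and 0.20) and Cd69 was lower (log2 -0.22, edgeR adjusted p = 4.82e-04). The calls of Tnfrsf4, Tnfrsf18 and Cd28 were lost in 4, 5 and 2 of 8 omissions of a library. In KO, 4 of the 9 were called, against 14.0% of all tested genes (6.73% higher), all higher with AA: Tnfrsf4 (log2 0.53, edgeR adjusted p = 8.24e-06), Icos (log2 0.39, edgeR adjusted p = 4.40e-05), Tnfrsf18 (log2 0.28) and Cd44 (log2 0.20). Icos stood at 23.6, 21.1, 19.5 and 19.1 CPM in KO AA, all above the 3 KO OA libraries.

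Across the 23 libraries, after the mean of each genotype was subtracted from log2 CPM, several of the 9 genes varied together. Pearson's r was 0.80 between Tnfrsf4 and Icos, 0.79 between Tnfrsf4 and Cd44 and 0.66 between Icos and Cd44. It was -0.81 between Cd69 and Cd44 and -0.66 between Cd69 and Tnfrsf4. These are descriptions: the points share their fatty acid groups. Among 11822 other genes, the most similar patterns to Tnfrsf4 were those of Cd2 (r = 0.92), a receptor that adheres T cells to presenting cells, and Ostf1 (0.88). For Cd69 they were Cpt1a (0.88), which admits fatty acids into mitochondria, and Plin2 (0.87), a lipid droplet coat protein. For Cd44 they were Wdr12 (0.93), which acts in ribosome assembly, and Filip1l (0.92), and for Icos they were Il7r (0.85), the interleukin 7 receptor, and St6gal1 (0.83), a sialyltransferase. Cd28 was closest to Stat4 (0.84), a cytokine signalling factor, and Inpp4b (0.78), a phosphoinositide phosphatase. Tnfrsf18 was closest to the overlapping Gm16008 (0.98) and to Pea15a (0.92). Tnfrsf9 was closest to RP23-320D23.6 (0.81) and Gps1 (0.77), Cd27 to Sppl3 (0.76) and Gm14681 (0.73), and Cd40lg to Serinc5 (0.68) and Plekha6 (0.64).

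The ligands of these receptors, made mainly by presenting cells, were sparse. Of 8 ligand and partner genes (Tnfsf9, Tnfsf4, Tnfsf18, Cd70, Cd80, Cd86, Icosl and Cd40), 6 passed the filter, and Tnfsf18 and Cd70 did not. In untreated KO against WT, 2 rose and 1 fell, where 49.8% of all tested genes were called. Tnfsf4, the OX40 ligand, rose from 2.53 ± 0.45 to 4.86 ± 1.0 CPM (SD, n = 4 each; log2 0.94, edgeR adjusted p = 6.11e-07). Cd80, a CD28 ligand, rose from 4.72 ± 0.47 to 7.01 ± 0.39 CPM (log2 0.57, edgeR adjusted p = 8.82e-06), and Cd40, the receptor of CD40 ligand, fell (log2 -1.18, edgeR adjusted p = 0.0108). Cd40 was close to the detection limit, with 12 to 32 counts per untreated WT library and 4 to 14 per untreated KO library. It averaged 0.48 CPM in WT and 0.21 in KO, but also only 0.24 in WT OA and 0.23 in WT AA. With OA, Cd86, the other CD28 ligand, fell in WT (log2 -0.47, edgeR adjusted p = 0.0160) and in KO (log2 -0.70), and Cd80 fell in KO (log2 -0.57). Thus 1 of the 6 was called with OA in WT and 2 in KO, against 3.73% and 23.2% of all tested genes. With AA, 0 of the 6 were called in WT and 1 in KO, where Cd80 fell (log2 -0.27, edgeR adjusted p = 0.0369). The shares of all tested genes called with AA were 0.416% in WT and 27.6% in KO.

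Other receptors of the tumour necrosis factor family were mostly lower in KO. Of 8 listed, 7 fell and 0 rose without fatty acid, against 24.2% of all tested genes lower and 25.6% higher, with a median log2 difference of -0.27 against -0.0029 over all tested genes. Examples are Tnfrsf25 (log2 -1.23), which costimulates T cells, Tnfrsf14 (log2 -0.69), the receptor of LIGHT, and the death receptor Fas (log2 -0.49). Between KO AA and WT AA, 5 of the 8 were lower and 2 higher (21.2% and 21.5% of all tested genes). Between KO OA and WT OA, 7 were lower and 0 higher (21.4% and 21.7%). With OA against none, 1 rose in WT and 1 rose and 2 fell in KO, against 3.73% (WT) and 23.2% (KO) of all tested genes called. With AA against none, 0 were called in WT and 2 rose and 1 fell in KO, against 0.416% (WT) and 27.6% (KO) of all tested genes called. Of 9 TRAF adaptors and partners, 2 rose and 3 fell in untreated KO, close to the 49.8% of all tested genes called; Birc2, a ubiquitin ligase recruited by TRAF2, fell (log2 -0.64), Traf1 fell (log2 -0.33) and Birc3 rose (log2 0.23). None of the 9 was called with OA in WT (3.73% of all tested genes called), while 1 rose and 4 fell in KO, where 23.2% of all tested genes were called. AA against none called 0 of the 9 in WT, and 2 rose and 0 fell in KO (0.416% and 27.6% of all tested genes called).

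Of 8 other costimulatory receptors, 1 rose and 4 fell in untreated KO (49.8% of all tested genes called, 24.2% lower), among them Slamf1 (log2 -0.65), a self-binding receptor, and Cd226 (log2 -0.26), which binds nectin family proteins. With OA, 2 of the 8 fell in WT (2.50% of all tested genes lower), Cd226 (log2 -0.37, edgeR adjusted p = 5.99e-09) and Cd2 (log2 -0.10, edgeR adjusted p = 0.0464), and 0 rose. In KO, 1 rose and 6 fell (23.2% of all tested genes called, 12.7% lower), and those with the smallest adjusted p were Cd226 (log2 -0.43), Cd6 (log2 -0.35) and Cd5 (log2 -0.35). The median log2 change of the 8 with OA was -0.10 in WT and -0.29 in KO, against 0.0030 and -0.01 over all tested genes. AA against none called 0 of the 8 in WT, and 2 rose and 3 fell in KO (0.416% and 27.6% of all tested genes called). Of 14 signalling genes downstream of CD28 and ICOS, 2 rose and 6 fell in untreated KO, near the 49.8% of all tested genes called, with Lcp2 higher (log2 0.35), a scaffold of T cell receptor signalling, and Malt1 (log2 -0.28) and Carmil2 (log2 -0.33) lower. With OA, 0 of the 14 were called in WT (3.73% of all tested genes called). In KO, 1 rose and 5 fell with OA (23.2% of all tested genes called), among them Lcp2 (log2 -0.36) and Prkcq (log2 -0.19). AA against none called 0 of the 14 in WT, where 0.416% of all tested genes were called. In KO, 3 of the 14 rose and 6 fell with AA (27.6% of all tested genes called).

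Of 10 other activation surface genes, 6 rose and 3 fell in untreated KO (49.8% of all tested genes called), among them the transferrin receptor Tfrc (log2 0.84), Il7r (log2 -0.93) and Ly6a (log2 -0.74). With OA, 5 of the 10 fell and 0 rose in WT (2.50% of all tested genes lower), among them Il7r (log2 -0.44) and S1pr1 (log2 -0.19), the receptor that CD69 removes from the surface. In KO, 2 rose and 7 fell with OA (23.2% of all tested genes called), among them Il7r (log2 -0.79) and Ly6c2 (log2 -0.90), whereas Slc3a2, an amino acid transporter subunit, rose (log2 0.29). AA against none lowered 1 of the 10 in WT and raised 0 (0.416% of all tested genes called). In KO, 2 of the 10 rose and 4 fell with AA (27.6% of all tested genes called). Of 7 CD44 partners, 4 rose and 1 fell in untreated KO (49.8% of all tested genes called), with Ezr, which links CD44 to actin, higher (log2 0.44). With OA, 2 of the 7 fell in each genotype, against 2.50% of all tested genes lower in WT and 12.7% in KO. AA against none called 0 of these 7 partners in WT, and 1 rose and 3 fell in KO (0.416% and 27.6% of all tested genes called). Of 7 regulators of message decay, 1 rose and 4 fell in untreated KO (49.8% of all tested genes called, 24.2% lower); Rc3h2, whose product Roquin-2 represses Icos and Tnfrsf4 messages, fell (log2 -0.60, edgeR adjusted p = 5.72e-16). With OA, Rc3h2 rose in KO (log2 0.24, edgeR adjusted p = 2.26e-05), where 2 of the 7 rose and 2 fell (23.2% of all tested genes called). In WT, Rc3h2 averaged 73.3 CPM with OA and 71.9 CPM without. Rc3h1, from the same list, averaged 53.0 CPM in WT, 49.6 in KO and 49.7 in KO OA. AA against none called 0 of these 7 regulators in WT, and 2 rose and 2 fell in KO (0.416% and 27.6% of all tested genes called). A link of these genes to the Icos and Tnfrsf4 levels was not tested.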

How the data were processed

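PolyA RNA of spleen CD8+ T cells was sequenced as stranded libraries in 23 libraries of 6 groups, per the labels. The authors deposited raw read counts per gene. Per the submitters' processing notes, Trimmomatic 0.36 and featureCounts of Subread 1.5.1 were used with GRCm38; no source used here names the aligner, annotation or strand setting. Between 66.5% and 70.7% of low counts were even numbers, so counts may hold both reads of a pair, and counting error is then larger than the counts imply.

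All 49492 genes entered filterByExpr (minimum count 10, minimum total 15) in edgeR 4.0.16 under R 4.3.3, and 18015 were kept, with 99.96% of counts. Libraries were scaled by TMM. All libraries entered 1 quasi-likelihood model, in which each group had its mean, and 11 contrasts were tested, with Benjamini-Hochberg adjustment over all tested genes and a threshold of 0.05. The scripts were tested on simulated data. CPM and RPKM were computed from the counts. Alternatives were DESeq2 1.42.0 size factors in edgeR, no filter, DESeq2's Wald test, compared groups alone, the replicate number as a block, and omission of each library; omission of both untreated replicate 3 libraries was added after seeing the data. Windows were from RefSeq, GRCm38.p6.

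The 9 genes and all lists were chosen with earlier results of these data known. All 9 genes are named in each comparison, up to 3 of each list by smallest adjusted p (some are not reported here), and the 2 genes most like each by Pearson's r (mean log2 CPM of at least 1). No 2 libraries of a group agreed within sampling noise.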

Additional observations from a re-analysis of the deposited data

Results flagged for a closer look

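In 5 of 45 groups of 4 libraries tested, 1 library stood apart from the other 3; chance alone would do so in about 1 of 20. Tnfrsf9 was 47.7 CPM in KO AA replicate 2, and the nearest other library was at 43.9 CPM. Cd27 was 430.2 CPM in WT replicate 3, below the next library at 462 CPM, and 433 CPM in KO replicate 3, above the next at 397 CPM. The columns of these untreated replicate 3 libraries each stand at the other's place in the table; column names decided their group, and their Trbv12-1 and Xist levels lay within the ranges of the genotype named. With both omitted, each of the 7 comparisons that use untreated libraries called as many of the 9 genes as before. Cd28 was 76.2 CPM in WT AA replicate 1 (nearest 73.8 CPM) and 109 CPM in KO AA replicate 1 (nearest 97.5 CPM).

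The fatty acid effects of 2 genes differed between genotypes by edgeR's interaction test. The AA effect in KO minus that in WT was -0.24 for Tnfrsf9 and 0.34 for Tnfrsf18 on the log2 scale. The OA effect differed by -0.21 for Tnfrsf9 and 0.23 for Tnfrsf18.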

How the results depend on the processing

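None of the 57 values that changed sign under an alternative belonged to a called gene. The OA interaction count fell from 2 to 1 genes, Tnfrsf9 being lost, under DESeq2's size factors in edgeR and with the compared groups alone. Omitting each library gave 0 to 2 genes for that count, 1 to 2 for AA in KO, 2 to 5 for AA against OA in WT and 1 to 3 for the AA interaction. To look for pairing, the group mean of each tested gene was subtracted from its log2 CPM, and the remainders were correlated between libraries of different groups. These remainders correlated between -0.04 and 0.11 for same-numbered libraries and between -0.09 and 0.07 for differently numbered ones. For AA against none in WT, the remainders of same-numbered libraries correlated between 0.03 and 0.11. No clear pairing by number was seen, but low correlations cannot exclude it. With the replicate block in edgeR, Icos was called in KO AA against WT AA (adjusted p = 0.0369), and no other call of the 9 genes changed. Tnfrsf18 with OA in WT was called by DESeq2 (adjusted p = 0.0293).

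Uncalled log2 values near 0 changed sign as follows. Without the filter, Cd69 with AA in WT became 4.16e-05 and Tnfrsf9 with OA in KO became -0.00049; the block gave -0.0058 for the latter. With compared groups alone, Cd27 with AA in KO became 0.0017 and the Cd28 AA interaction 0.016; the latter was 0.0065 with DESeq2's size factors and 0.0063 with DESeq2. With both untreated replicate 3 libraries omitted, Cd69 with AA in WT was 0.019, Cd27 with OA in WT -0.018, Cd27 with AA in KO 0.037, Cd27 with OA in KO 0.014, the Cd44 AA interaction 0.028, and the OA interactions of Cd27 and Cd44 0.032 and 0.016. Omitting single libraries gave -0.10 to 0.00085 for Tnfrsf4 in KO against WT, and -0.0030 to 0.0708 for Tnfrsf18 in KO AA against WT AA. With AA in WT it gave -0.0524 to 0.0306 for Icos, -0.0282 to 0.0234 for Cd69 and -0.0196 to 0.0541 for Tnfrsf18; with AA in KO, -0.0492 to 0.0332 for Cd27 and -0.0774 to 6.93e-05 for Cd44. With OA it gave -0.0151 to 0.0243 for Cd27 in WT, -0.0507 to 0.0017 for Cd27 in KO and -0.0314 to 0.0496 for Tnfrsf9 in KO. AA against OA gave -0.22 to 0.23 for Cd40lg in WT and -0.0239 to 0.0587 for Cd27 in KO. The AA interactions of Cd28 and Cd44 ran from -0.0285 to 0.0288 and -0.0603 to 0.0228, and the OA interaction of Cd69 from -0.0446 to 0.0130. The cause was not tested. Other scalings moved the median of all genes by at most 0.012. Over all genes, AA in WT called 75, against 129 by DESeq2.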
